A study of Mus musculus with 96 samples.

Results

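The genes described here encode the proteins of the cytosolic ribosome. They were chosen by symbol, as Rpl or Rps followed by a number and at most 1 trailing a, x or y, together with Rplp0, Rplp1, Rplp2 and Rpsa. Of 76 such symbols, 73 exceeded a level of 5 in at least 3 of 36 hepatocyte libraries and are the members, 28 with small subunit and 45 with large subunit names. They stand among 13326 genes that met the same filter and 25095 symbols in all. The 3 symbols left out were Rpl28, above 5 in 2 libraries, and Rps13 and Rps29, above 5 in 1 library each.

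RNA was sequenced from isolated hepatocytes and liver macrophages of male C57BL/6J mice with fatty liver after 4 weeks on a high fat and sucrose diet. Collection was at 4 zeitgeber times (ZT, counted in hours from the start of light in a 12 h light and 12 h dark cycle), namely 4, 10, 16 and 22. The 96 libraries form 32 groups of 3, so that each genotype and cell type has 12. Floxed mice received an adeno-associated virus by vein at 8 weeks of age, with GFP under the hepatocyte promoter TBG for Control, or Cre under the same promoter to delete both REV-ERB clock repressors (RevDKO), both REV-ERBs and SCAP, the escort of the lipogenic SREBP factors (RevScapTKO), or SCAP alone (ScapKO). The TBG promoter limits Cre to hepatocytes, so the macrophages are those of a liver with altered hepatocytes and were not themselves the target. Control, RevDKO and RevScapTKO share 1 table per cell type, and ScapKO has a table of its own per cell type without controls. Levels are RPKTM, reads per kilobase of transcript scaled to a fixed total of reads, quantile normalized within each table, so levels were compared only within a table.

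The ribosome joins a small subunit, which reads the mRNA, and a large subunit, which forms the peptide bond, and most of its proteins are needed for its assembly. Many of their mRNAs begin with a run of pyrimidines, the 5' terminal oligopyrimidine tract, through which mTOR signalling sets their translation. Mammalian genomes also carry many processed pseudogenes of these genes, intronless copies of the mRNA, so that a short read can match several places.

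The targeted genes were read first as a check of the labels. Scap averaged 495 in Control, 536 in RevDKO and 209 in RevScapTKO hepatocytes. Nr1d1 and Nr1d2, which encode the REV-ERBs, showed no loss of RNA in RevDKO or RevScapTKO hepatocytes. Nr1d1 averaged 138 in RevDKO and 90.7 in Control (log2 difference 1.55, limma adjusted p = 8.87e-05), and Nr1d2 averaged 312 and 228 (0.62, adjusted p = 0.0626). In RevScapTKO Nr1d1 averaged 140 and Nr1d2 353. RevDKO and RevScapTKO below therefore mean the libraries with these labels. The study itself reports a marked reduction of both mRNAs in hepatocytes, with derepression of the REV-ERB target Bmal1. Whether the deleted part of these genes lies within the counted transcript is not given in the sources used here, so the levels above do not show that deletion failed. The ScapKO hepatocyte libraries are hepatocytes by title but macrophages by the cell type field, and their hepatocyte marker sums of 529000 to 1480000, against 23200 to 193000 in the ScapKO macrophage libraries, go with the title. Macrophage libraries held hepatocyte transcripts throughout, with hepatocyte marker sums of 43400 to 2430000 in the 3-genotype table. In bulk RNA, fewer cells of a type and less RNA per cell cannot be told apart.

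The order of the members by level went, in part, with how much of a member's transcript is repeated elsewhere in the genome. The following 50-base stretches of coding sequence, read from the mm9 genome in the sense of the gene, show 2 members with no second exact copy and 3 with copies. The first 2 occur nowhere else in mm9, and the stretches of Rps27, Rps12 and Rpl23a match exactly at 2, 8 and 2 other places.
Rps3, chr7:106628527-106628576, minus strand: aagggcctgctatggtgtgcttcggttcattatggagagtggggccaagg
Rpl8, chr15:76735330-76735379, plus strand: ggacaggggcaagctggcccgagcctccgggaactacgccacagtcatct
Rps27, chr3:90016922-90016971, minus strand: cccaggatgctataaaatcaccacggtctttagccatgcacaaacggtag
Rps12, chr10:23505717-23505766, minus strand: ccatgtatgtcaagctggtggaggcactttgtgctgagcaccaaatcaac
Rpl23a, chr11:77995044-77995093, minus strand: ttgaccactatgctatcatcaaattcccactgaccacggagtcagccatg
Over all 72 members with a transcript in the reference annotation (Rpl41 had none), a median of 60.6% of the 50-base stretches of a transcript also stood elsewhere in mm9, at a median of 11.5 places. The share reached 99.7% in Rps27, was 7.87% in Rpl8 and 3.44% in Rps3, and was at least 50% in 45 members.

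In the 3-genotype hepatocyte table the member means ran from 2.23 to 605 RPKTM with a median of 34.7, against a median of 45.0 over all genes that passed the filter, and 28 of 73 members lay above that gene median. The highest means in Control hepatocytes belonged to Rpl4 at 645 ± 120 (SD, n = 12), Rpl8 at 363 ± 52.8, Rps3 at 318 ± 58.3, Rplp0 at 302 ± 63.0 and Rplp1 at 244 ± 56.2. The lowest were those of Rps23 at 2.88 ± 1.90, Rpl27 at 3.0 ± 1.60, Rpl38 at 3.20 ± 2.71, Rps16 at 3.60 ± 1.92 and Rpl24 at 4.04 ± 1.36. Among these 5 low members no mean stood apart from its neighbour by more than the spread between libraries, whereas Rpl4 was above Rpl8 by more than the SD of either. All of them encode core components of the same particle, in which Rpl4 and Rpl8 are large subunit proteins and Rps3 lies at the mRNA entry of the small subunit.

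Control macrophages gave nearly the same list at the top, with Rpl4 at 366 ± 96.4, Rps3 at 288 ± 84.6, Rpl8 at 245 ± 57.5, Rplp0 at 219 ± 46.1 and Rplp1 at 211 ± 45.7. At the bottom stood Rpl36a at 0.701 ± 1.02, Rpl24 at 0.788 ± 1.32, Rps23 at 0.864 ± 1.09, Rpl27 at 1.13 ± 1.33 and Rps27a at 1.17 ± 1.35, all with libraries listed at 0. There, 67 of 73 members passed the filter on low values and 19 had at least 1 library listed at 0. How many reads stand behind a value, or behind a listed 0, is unknown, since no depth is given with the tables.

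In the ScapKO tables the same genes ranked high. The median member lay at the 75.7th percentile of all genes kept in ScapKO hepatocytes and at the 82.6th in ScapKO macrophages, against the 43.7th and 53.2nd in the hepatocyte and macrophage tables of the other genotypes. Rps12, a small subunit protein, was at percentile 12.8 in the 3-genotype hepatocyte table and at 76.3 in the ScapKO hepatocyte table, and Rps27 moved from 8.87 to 71.1. Rpl9 and Rpl10 stood at percentiles 17.4 and 27.8 in the first and at 83.7 and 88.7 in the second. Rps3, with few repeated stretches, was high in both, at percentiles 88.7 and 90.2. Genotype, table and the handling of the libraries are joined in this contrast and cannot be told apart.

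Across the 72 members the level fell with the share of 100-base stretches found elsewhere in the 3-genotype tables, with Spearman's rho of -0.73 in hepatocytes and -0.765 in macrophages, and less so in the ScapKO tables, at -0.227 and -0.291. With 50-base stretches the values were -0.585, -0.603, -0.156 and -0.207. In the 3-genotype hepatocyte table the 27 members with under 50% of 50-base stretches elsewhere had a median level of 59.2 and the 45 others a median of 19.4, while in the ScapKO hepatocyte table the medians were 268 and 206. These are descriptions across genes that share libraries, only exact matches were searched, and 44 of the 72 transcripts were within 20 bases of the length in the deposited tables. How reads with several matches were counted, and the read length, are not given in the sources used here, and the part of repeated sequence in the levels was not tested.

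**Figure D1:**
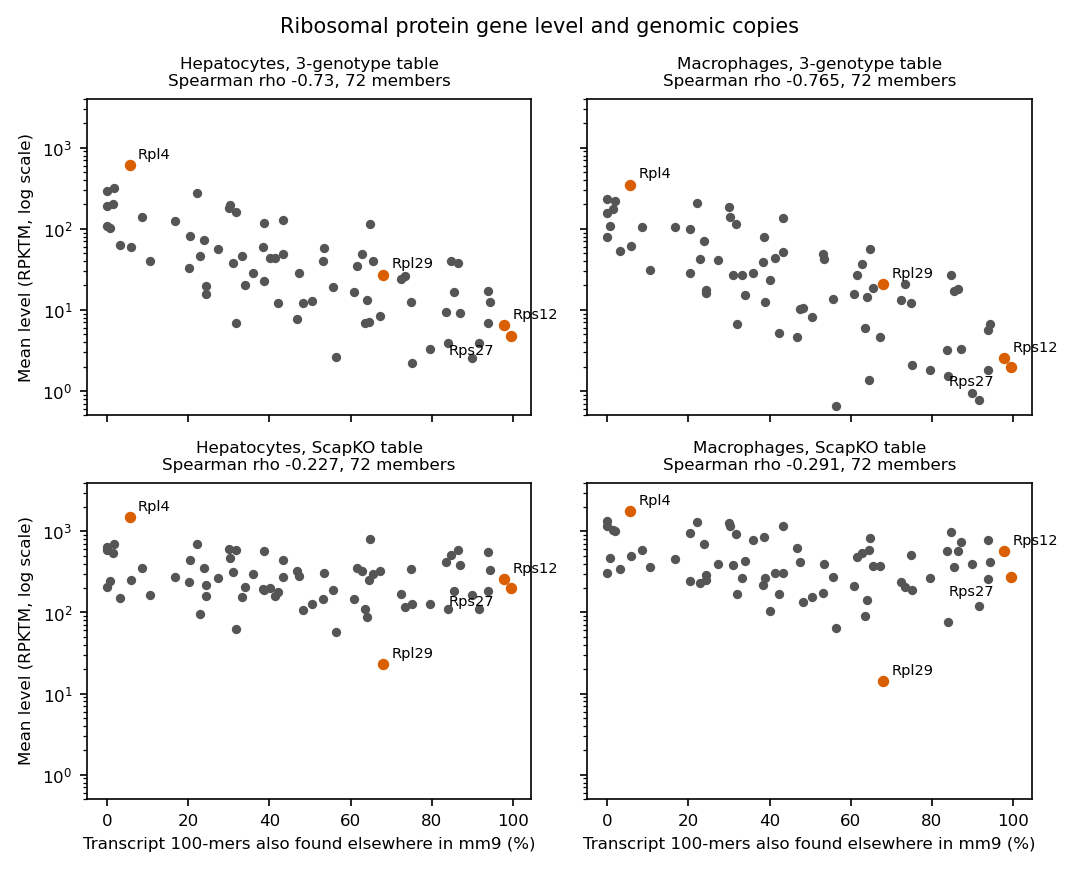
Mean level of each of 72 members (RPKTM, log scale, all libraries of a table) against the percentage of its 100-base transcript stretches found elsewhere in mm9, 1 panel per table. Within a table, level fell more steadily with repeated sequence in the 3-genotype tables (rho -0.73 and -0.765) than in the ScapKO tables (rho -0.227 and -0.291), where Rpl29 stood lowest.

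Start sites were read next, because a pyrimidine tract at the start is known of many ribosomal protein genes. The windows below hold 40 bases before and 25 from the annotated start, mm9, in the sense of the gene, and are shown for the members on which the results turn. Capitals mark a tract of a C followed by at least 6 further pyrimidines within 20 bases before to 25 after the start, and a window without capitals has none.
Rpl29, chr9:106331702-106331766, plus strand: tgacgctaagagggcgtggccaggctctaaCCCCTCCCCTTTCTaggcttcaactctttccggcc
Rplp1, chr9:61762293-61762357, minus strand: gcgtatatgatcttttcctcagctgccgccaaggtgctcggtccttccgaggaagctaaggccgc
Rpl36, chr17:56752778-56752842, plus strand: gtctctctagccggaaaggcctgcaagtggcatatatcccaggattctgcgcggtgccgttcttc
Rpl23a, chr11:77997062-77997126, minus strand: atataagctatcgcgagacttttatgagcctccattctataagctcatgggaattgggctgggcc
Rplp0, chr5:116009436-116009500, plus strand: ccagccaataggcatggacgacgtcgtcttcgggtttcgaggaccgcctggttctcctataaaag
Rpl4, chr9:64021154-64021218, plus strand: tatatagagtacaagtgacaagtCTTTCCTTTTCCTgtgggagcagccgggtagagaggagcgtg
Rps27, chr3:90017546-90017610, minus strand: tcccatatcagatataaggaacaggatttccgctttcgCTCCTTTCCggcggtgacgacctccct
Rpl13a, chr7:52384091-52384155, minus strand: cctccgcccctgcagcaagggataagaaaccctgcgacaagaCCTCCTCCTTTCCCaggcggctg
Such a tract was found in 33 of 73 members (45.2%) and at 20.9% of 13310 starts of all genes kept. Starts are those of the annotation and were not measured, and shorter tracts or tracts outside the span are not counted. A member without capitals is therefore not shown to lack a tract at its true start. In the window from 250 bases before to 50 after the start, searched on both strands, the ETS-family motif CCGGAAG was present in 31 members (42.5%) against 17.3% of starts, and the YY1 motif AAGATGGC in 6 (8.22%) against 4.56%. The E-box CACGTG of clock factors stood in 7 members (9.59%) and at 9.68% of starts. The REV-ERB and ROR response element and the sterol element of SREBP were in 0 members, against 0.158% and 0.0451% of starts. A match describes letters in a window and not binding.

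**Figure D2:**
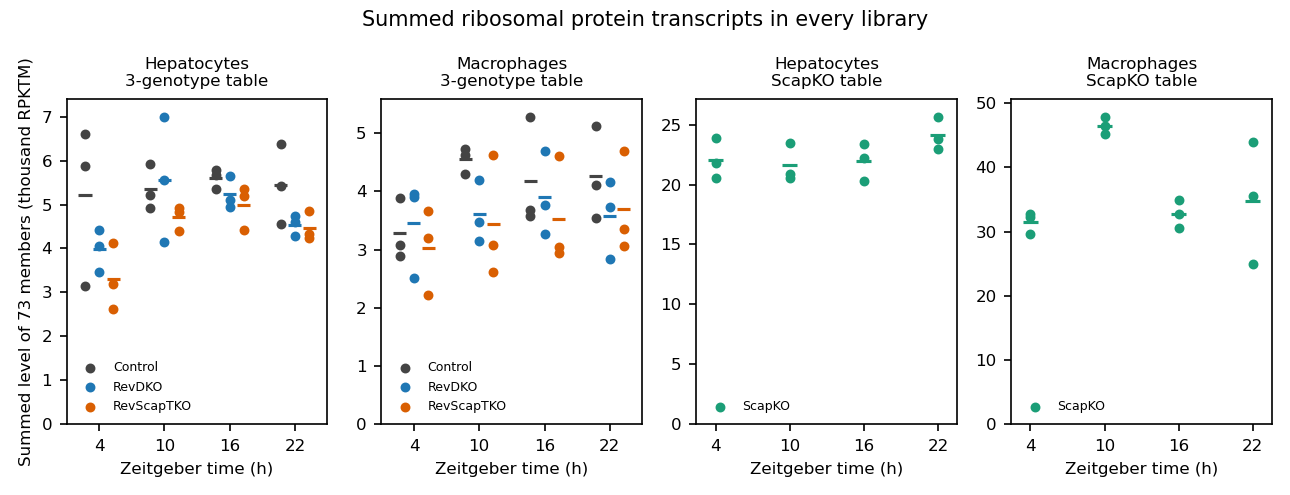
Summed level of the 73 members in every library (RPKTM divided by 1000, 1 point per library, horizontal lines are means of 3) by zeitgeber time, 1 panel per table with its own vertical scale. Control hepatocytes at ZT4 held 1 library at 3152 beside 5879 and 6604, and ScapKO macrophages at ZT10 ran from 45230 to 47810.

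The summed level of all 73 members gave a view of the genes as a group. In hepatocytes it ran from 3152 to 6604 in Control with a median of 5552, from 3467 to 6987 in RevDKO with a median of 4671, and from 2629 to 5347 in RevScapTKO with a median of 4404. The genotypes overlapped. In Control hepatocytes at ZT4, replicate 3 had 3152 while the other libraries had 5879 and 6604, and results that this library moves are given without it. In the 3-genotype tables the members together made up 0.0338 to 0.0899% of the RPKTM summed over all transcripts of a hepatocyte library. In a macrophage library they made up 0.0379 to 0.0901%. The largest single value was 10.8% of that sum in hepatocytes and 27.5% in macrophages. In most libraries it belonged to Rn45s, the ribosomal RNA precursor.

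**Figure D3:**
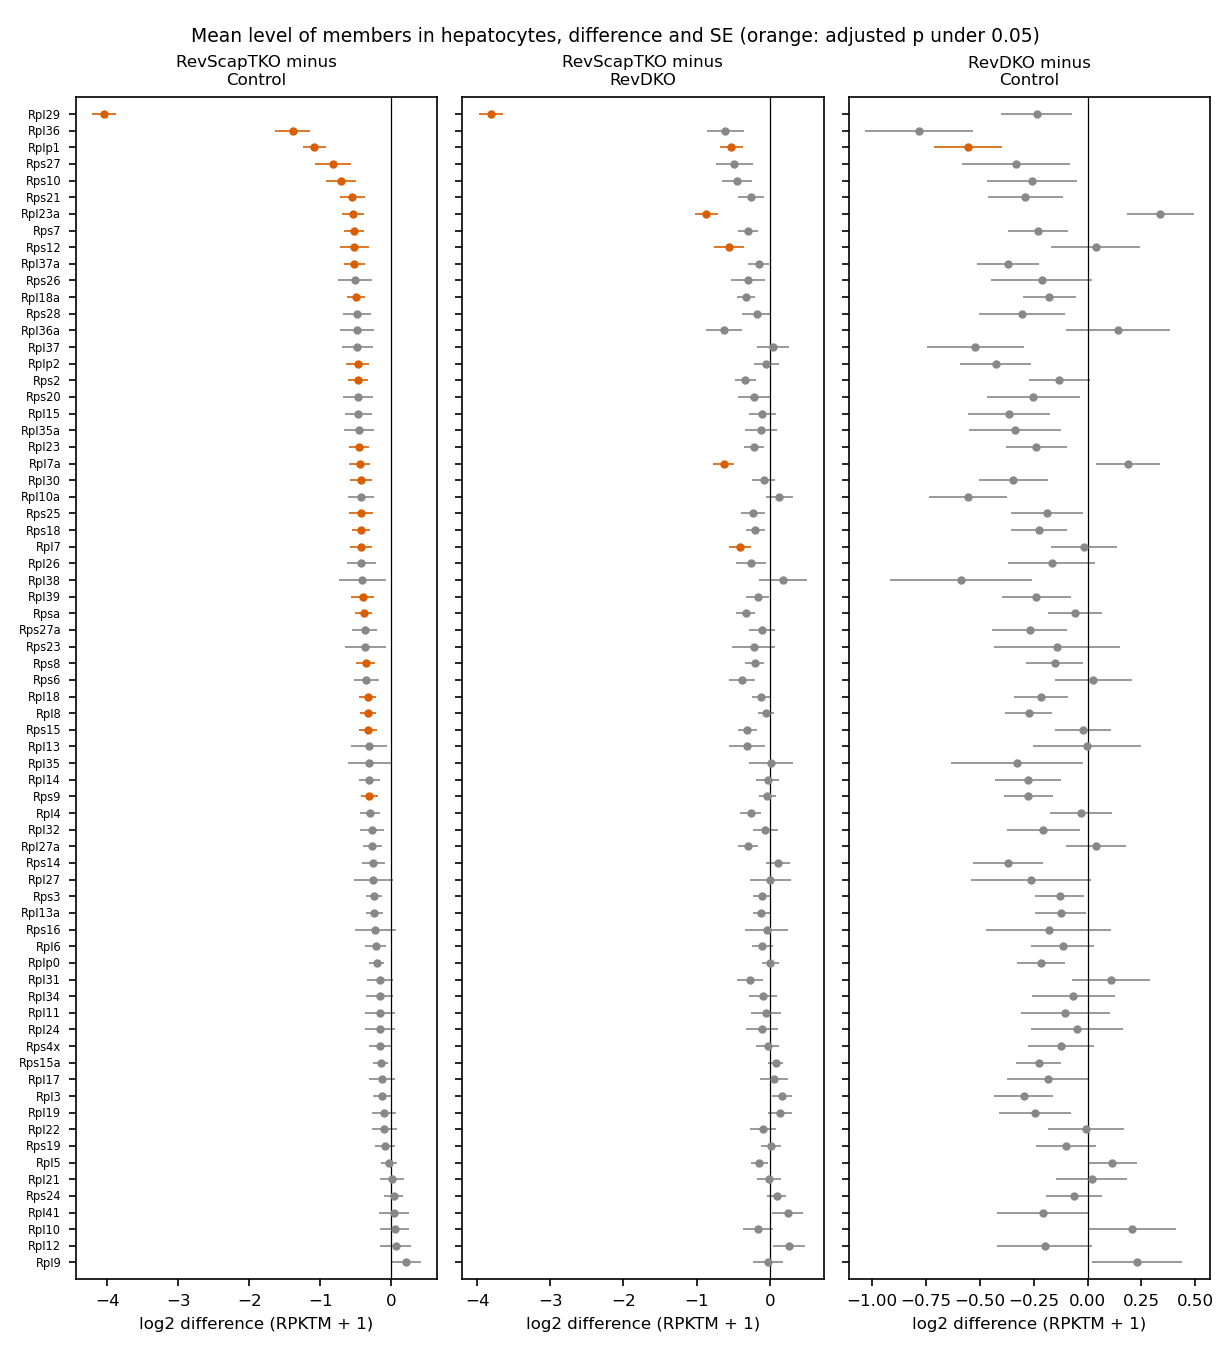
log2 difference of the mean level of single members in hepatocytes with its standard error, from the limma fit on log2(RPKTM + 1) over 36 libraries, for 3 contrasts whose horizontal scales differ. Orange marks an adjusted p under 0.05, all of it to the left of 0: among all 73 members 28 were lower in RevScapTKO against Control, 7 in RevScapTKO against RevDKO and 1 in RevDKO against Control, and a few members are not drawn.

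The libraries labelled RevDKO, whose Nr1d1 and Nr1d2 RNA was not lower, were compared with Control, a contrast designed to ask what the hepatocyte clock does. In hepatocytes 1 of 73 members, Rplp1, was lower in RevDKO by limma with Benjamini-Hochberg adjustment over all genes, and 0 were higher, where 4.43% of all 13326 genes were called in either direction and 2.43% as lower. Rplp1 encodes an acidic stalk protein, part of the lateral arm of the large subunit that recruits elongation factors. Its level ran from 111 to 343 in Control with a median of 253, and from 70.3 to 238 in RevDKO with a median of 189. The ranges overlapped, and the lowest Control library was replicate 3 at ZT4. The log2 difference was -0.55 (SE 0.16, adjusted p = 0.0361). The median difference of the members was -0.20, with 62 of 73 below 0, against -0.01 over all genes, and 14 members (19.2%) had an unadjusted p under 0.05, near the 16.8% of all genes. Without Control ZT4 replicate 3, 4 members were called lower. Leaving out any of 13 other libraries ended the call of Rplp1.

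The step from RevDKO to RevScapTKO asked what SCAP adds. In hepatocytes 7 members were lower and 0 higher, against 12.7% of all genes called lower and 26.2% in either direction. By far the largest fall was that of Rpl29, described separately below. Rpl23a, a large subunit protein next to the exit of the nascent chain, ran from 4.26 to 13.9 in RevDKO with a median of 8.82, and from 2.13 to 6.86 in RevScapTKO with a median of 4.31. The groups overlapped in part, and the log2 difference was -0.87 (SE 0.16, adjusted p = 0.000131). Rpl7a fell by 0.63 on the log2 scale (SE 0.15, adjusted p = 0.002) and Rplp1 by 0.53 (SE 0.16, adjusted p = 0.0135). Rps12 (-0.56, adjusted p = 0.0453) and Rpl7 (-0.41, adjusted p = 0.0489) lay close to the threshold. The median of the members was -0.12 against -0.03 over all genes. The count was 11 without Control ZT4 replicate 3, 11 without RevDKO ZT10 replicate 1, 14 without RevScapTKO ZT4 replicate 1 and 4 without RevDKO ZT16 replicate 1 or 2.

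RevScapTKO and Control, the contrast that spans both steps and shares its libraries with them, gave the most calls. In hepatocytes 28 of 73 members were lower and 0 higher, against 18.7% of all genes called lower and 35.9% in either direction. They comprised 14 of 28 small subunit and 14 of 45 large subunit members. The median member differed by -0.34, with 67 of 73 below 0, while the median of all genes was -0.04. The count was 16 without RevScapTKO ZT4 replicate 3, 17 without Control ZT4 replicate 2, 18 without Control ZT16 replicate 1 and 39 without Control ZT4 replicate 3.

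Among the stalk proteins, Rplp1 ran from 49.5 to 198 in RevScapTKO with a median of 109. The groups overlapped between 111 and 198, and 6 of 12 RevScapTKO libraries lay below the Control range. The log2 difference from Control was -1.08 (SE 0.16, adjusted p = 4.27e-06). Rplp2, its partner in the stalk, ran from 20.6 to 45.1 in Control and from 13.5 to 40.7 in RevScapTKO, with overlapping groups, and differed by -0.47 (adjusted p = 0.0257). Rplp0, the base of the stalk and under the name Arbp the gene to which the study's quantitative PCR was scaled, ran from 183 to 416 in Control, from 190 to 344 in RevDKO and from 147 to 349 in RevScapTKO. Its log2 differences were -0.21 for RevDKO and -0.21 for RevScapTKO against Control (adjusted p = 0.328 and 0.147), and 0.01 between the knockouts (adjusted p = 0.965).

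Among other large subunit members, Rpl36 ran from 3.71 to 22.1 in Control with a median of 11.0, and from 0 to 11.2 in RevScapTKO with a median of 3.21. The groups overlapped, and the log2 difference was -1.39 (SE 0.25, adjusted p = 7.27e-05). Rpl23, which with Rpl5 and Rpl11 is known to bind the p53 regulator Mdm2, differed by -0.45 (adjusted p = 0.0128), whereas Rpl5 differed by -0.03 and Rpl11 by -0.16 (adjusted p = 0.873 and 0.574). Rpl22 differed by -0.10 and Rpl13a by -0.24 (adjusted p = 0.689 and 0.118). Of the 9 members that are common reference genes for quantitative PCR, Rpl7 (-0.42, adjusted p = 0.0314) and Rps18 (-0.42, adjusted p = 0.0121) were lower, and Rpl32 differed by -0.27 (adjusted p = 0.223).

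In the small subunit, Rps27 ran from 2.61 to 9.56 in Control with a median of 6.07 and from 1.15 to 6.56 in RevScapTKO with a median of 2.7. It differed by -0.82 (SE 0.25, adjusted p = 0.0119), with overlapping groups. Rps10 went from a median of 16.4 to 8.55, a difference of -0.71 (SE 0.21, adjusted p = 0.00902). Rpsa, also known as a laminin receptor, was lower by a smaller amount (-0.39, adjusted p = 0.016). Rps6, the substrate of S6 kinase, differed by -0.35, Rps27a, which is made as a fusion with ubiquitin, by -0.37, and Rps19 by -0.08 (adjusted p = 0.126, 0.0915 and 0.659).

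Markers of other liver cells moved with this contrast. The summed level of 14 macrophage markers in the hepatocyte libraries was 284 to 3780 in Control (median 1050), 489 to 2840 in RevDKO (median 1300) and 1130 to 7390 in RevScapTKO (median 3520). All 14 were called higher in RevScapTKO than in Control, as were 7 of 8 endothelial, 6 of 7 stellate and 4 of 4 proliferation markers. With the mean log2 level of the macrophage markers as a covariate, 3 members rather than 28 were called lower, when the calls over all genes also went from 35.9 to 5.85%. The 3 were Rpl29 (-3.95, adjusted p = 1.11e-13), Rplp1 (-0.75, adjusted p = 0.029) and Rps27 (-1.38, adjusted p = 0.00963), and the median of the members became -0.02. Against RevDKO only Rpl29 was called with the covariate (-3.72, adjusted p = 2.44e-13), the median of the members turned from -0.12 to 0.16, and 2.44% of all genes were called. Rplp1 in RevDKO against Control kept its call (-0.53, adjusted p = 0.0274), beside 5.37% of all genes.

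In macrophages, 67 members passed the filter. RevDKO against Control gave 0 calls by limma, with 7 members (10.4%) at an unadjusted p under 0.05 beside 13.9% of all genes, the smallest adjusted p of 0.134 in Rpl36, and 0.574% of all genes called, 0.172% as lower. Between RevScapTKO and RevDKO 1 member was called, Rpl29, with 3.0% of all genes called and 1.78% as lower. Between RevScapTKO and Control 2 were called, Rpl29 and Rpl37, both lower, with 3.76% and 1.38%. Rpl37, a zinc finger protein of the large subunit, ran from 10.3 to 40.1 in Control with a median of 19.4 and from 4.75 to 15.5 in RevScapTKO with a median of 10. The groups overlapped, and the log2 difference was -1.01 (SE 0.28, adjusted p = 0.035). Rplp1 differed by -0.50 (adjusted p = 0.0792) and Rplp0 by -0.06 (adjusted p = 0.907). The medians of the members in the 3 contrasts were -0.17, -0.03 and -0.26, against -0.04, 0.04 and -0.04 over all genes.

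The call of Rpl37 ended on leaving out any of 11 libraries. Leaving out Control ZT22 replicate 3 gave 5 members in macrophages of RevScapTKO against Control, RevScapTKO ZT10 replicate 1 gave 7, and RevScapTKO ZT16 replicate 1 or ZT22 replicate 2 gave 4. With the hepatocyte markers as a covariate, 16 were called, 15 lower and Rpl10a higher, against 11.1% of all genes. Of 14 hepatocyte markers 2 were called lower between these groups and 0 higher. Of 7 stellate markers 3 were higher, Col1a1 by 1.89, as was the cholangiocyte marker Sox9 by 1.91, and 0 of 14 macrophage markers were called, with a median of -0.53. The part of the stellate, cholangiocyte and macrophage markers in these values was not tested. The hepatocyte marker sum ran from 77600 to 2430000 in Control with a median of 112000. In RevScapTKO it ran from 43400 to 847000 with a median of 116000. The value of 2430000 was that of Control ZT22 replicate 1. With the covariate, 0 members were called in RevDKO against Control (1.7% of all genes), and 3 in RevScapTKO against RevDKO (4.58%), Rpl29, Rplp1 and, as higher, Rpl10a.

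Rpl29 was the 1 member with a change of another order. It encodes a large subunit protein also known as heparin-binding protein, on chromosome 9, plus strand, mm9 chr9:106331742-106333899. In hepatocytes its level ran from 16 to 58.1 in Control with a median of 44.2, from 21.6 to 70.0 in RevDKO with a median of 36.7, and from 0.658 to 3.1 in RevScapTKO with a median of 1.55. The RevScapTKO libraries lay below every library of both other genotypes at all 4 times. The log2 difference was -4.05 from Control (SE 0.17, adjusted p = 1.21e-18) and -3.81 from RevDKO (SE 0.17, adjusted p = 6.32e-18), on a log2(RPKTM + 1) scale that understates a change near 0. From RevDKO it was the 19th largest fall and the 9th smallest p of 13326 genes.

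The macrophage libraries showed the same loss of Rpl29. There it ran from 16.2 to 41.6 in Control with a median of 31.6, from 16.2 to 49.0 in RevDKO with a median of 32.1, and from 0.07 to 3.35 in RevScapTKO with a median of 1.86. Again the groups did not overlap, and the differences were -3.54 from Control (SE 0.24, adjusted p = 2.15e-12) and -3.55 from RevDKO (SE 0.24, adjusted p = 1.19e-12), the 8th largest fall and the 5th smallest p of 13947 genes. Scap itself averaged 119, 172 and 114 in macrophages of Control, RevDKO and RevScapTKO and was not called in either contrast (adjusted p = 0.127 against RevDKO and 0.941 against Control). All 3 annotated Rpl29 transcripts, of 833, 770 and 1164 bases, showed the loss, with RevScapTKO medians of 1.08, 1.24 and 1.55 in hepatocytes. Their Control medians were 43.6, 43.6 and 44.2, and as transcripts of 1 gene they are not separate support. Of the 50-base stretches of Rpl29, 86.0% also stood elsewhere in mm9, at 97 places, as did 68.0% of its 100-base stretches. The part of repeated sequence in its level was not tested in any table. The call held in every setting tried and without any 1 library in both cell types, except that the stricter filter on low values left Rpl29 out of the genes tested.

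In the ScapKO tables, which hold no controls, Rpl29 had the lowest mean of all 73 members in both cell types. It ran from 5.69 to 50 in hepatocytes with a median of 17.8 and from 5.24 to 23.9 in macrophages with a median of 13.3, where the next lowest member mean was 57.1 and 65.1, both of Rpl27. In Control hepatocytes 37 members were lower than Rpl29 and 35 higher, and in RevScapTKO hepatocytes 0 were lower. No test across tables was made.

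Rpl29 lies on the chromosome of Scap, 3.9 Mb away from it (Scap, chr9:110235792-110287453, plus strand). Neighbouring genes were read after its value had been seen. Within 5 Mb of Scap, 10 of 123 genes tested in both cell types were called in both between RevScapTKO and RevDKO (8.13%), Rpl29 included, against 7 of 119 (5.88%) from 5 to 20 Mb, 14 of 436 (3.21%) farther along chromosome 9, and 306 of 11961 (2.56%) on other chromosomes. Beside Rpl29 stood Abhd14a, at -2.07 in hepatocytes and -1.53 in macrophages, and Abhd14b, at -1.27 and -1.38. Glb1, lysosomal beta-galactosidase, differed by -1.95 and -1.47. Col6a5 moved the other way, by 2.37 and 1.92. In hepatocytes Glb1 ran from 45.8 to 84.7 in RevDKO and from 8.5 to 39.5 in RevScapTKO, with no overlap. All these calls share the RevScapTKO and RevDKO libraries of a cell type, and what links the genes was not tested.

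**Figure D4:**
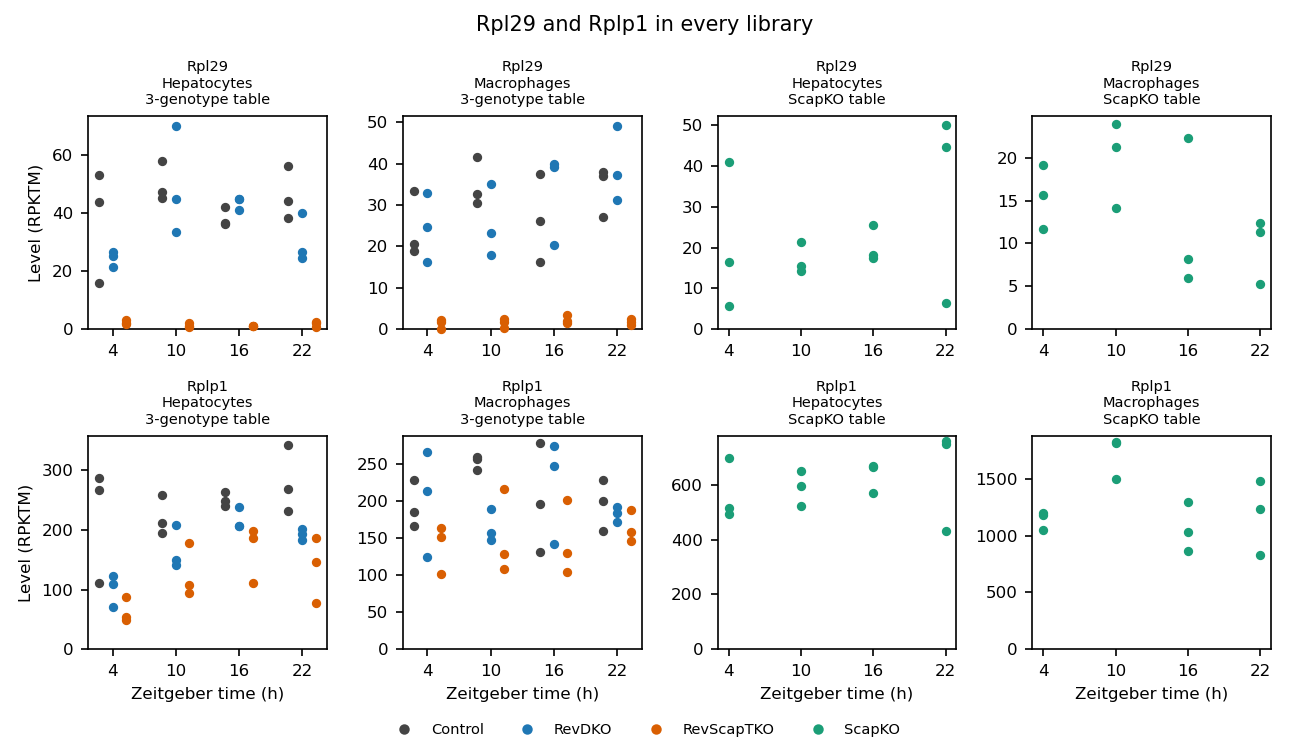
Level of Rpl29 (upper row) and Rplp1 (lower row) in every library (RPKTM, 1 point per library) by zeitgeber time, 1 column per table with its own vertical scale. Rpl29 stayed at 3.1 or less in all RevScapTKO hepatocytes and 3.35 or less in RevScapTKO macrophages, while Rplp1 overlapped between the genotypes.

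Rhythm was the study's main question. A change in the 24 h pattern between genotypes, tested in limma as the difference of a cosine and a sine term, was called in 0 members in RevDKO against Control and in RevScapTKO against RevDKO, in hepatocytes and in macrophages. Of all genes, 27 were called in the first hepatocyte contrast (0.203%) and 0 in each of the other 3. At an unadjusted p under 0.05 there were 2 members in each of the 4 tests, 2.74% in hepatocytes beside 4.91 and 5.06% of all genes, and 2.99% in macrophages beside 5.5 and 3.57%. The smallest p values were those of Rpl15 (0.0174), Rpl23a (0.0298) and Rpl37a (0.056) for RevDKO against Control in hepatocytes, and of Rpl29 (0.00408), Rpl37a (0.048) and Rps4x (0.0598) for the second step, with adjusted p from 0.789 to 1. In macrophages they were those of Rps10 (0.037), Rpl36 (0.0466) and Rpl13 (0.0613), then of Rpl36 (0.0123), Rpl21 (0.0445) and Rpl27a (0.0876), with adjusted p from 0.891 to 0.998.

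Within a genotype, rhythmic genes were called by JTK_CYCLE, a rank test against cosine patterns, with the 24 h series entered 2 times after the study's practice, a p under 0.05 and a highest time mean more than 1.5 times the lowest. Among Control hepatocytes 3 of 72 members tested were rhythmic, beside 24.8% of all genes. The count was 6 without Control ZT4 replicate 3 and 5 without ZT4 replicate 1, ZT10 replicate 1 or ZT16 replicate 2 or 3. RevDKO hepatocytes gave 23 of 71 members beside 24.9%, RevScapTKO hepatocytes 21 of 67 beside 16%, and ScapKO hepatocytes 8 of 73 beside 15.6%. For Control, RevDKO, RevScapTKO and ScapKO macrophages there were 5 of 64 members beside 15.2%, 7 of 66 beside 21.8%, 2 of 62 beside 11.7% and 15 of 73 beside 17.2%. Single libraries moved these counts too, to 1 without Control ZT4 replicate 2 and 10 without Control ZT16 replicate 3, to 4 without RevDKO ZT22 replicate 1, and to 1 without RevScapTKO ZT22 replicate 2 and 6 without RevScapTKO ZT10 replicate 1. Entering a series 2 times repeats each value, and with each series entered once the counts were 0, 5, 3 and 1 in hepatocytes and 0, 0, 0 and 1 in macrophages, against 4.35, 3.84, 1.5, 2.7, 1.05, 1.56, 0.829 and 2.0% of all genes. A member rhythmic in RevDKO and not in Control is not shown to differ between them, since the test of the change called none.

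**Figure D5:**
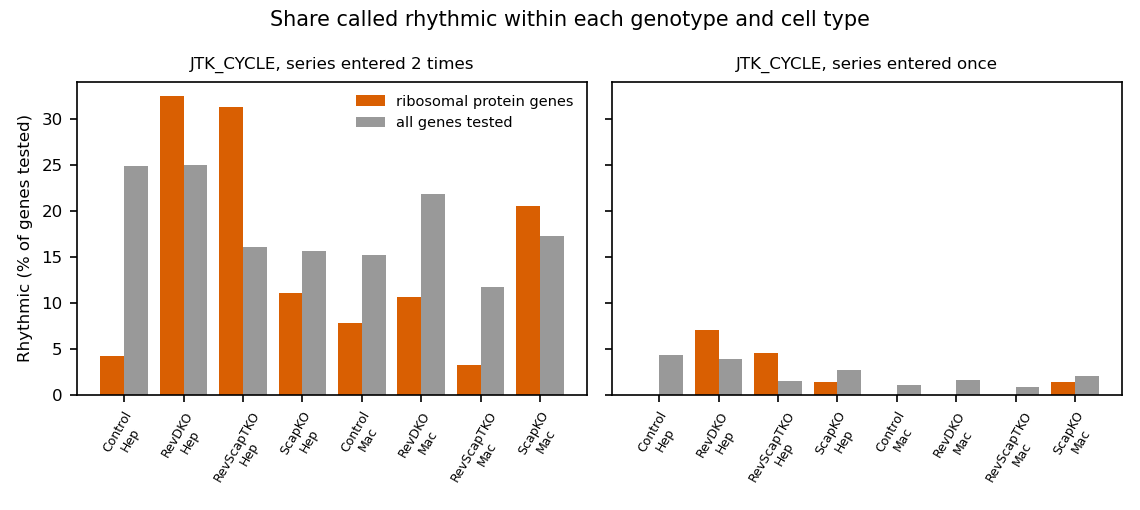
Percentage of members (orange) and of all genes tested (grey) called rhythmic by JTK_CYCLE in each genotype and cell type, with the series entered 2 times (left) and once (right). Bars are single percentages without error: members reached 32.4% in RevDKO and 31.3% in RevScapTKO hepatocytes on the left, and 7.04% and 4.48% on the right.

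The rhythmic members of RevDKO hepatocytes peaked mostly at ZT16 (11) and ZT10 (10), and those of RevScapTKO hepatocytes at ZT16 (9), ZT10 (8) and ZT22 (3). The 5 that were also called with the series entered once in RevDKO included Rpl13a, Rpl23a, Rpl37a and Rplp1, and in RevScapTKO they were Rpl13a, Rplp1 and Rps20, all named after their values were seen. By limma within RevDKO, 3 members, among them Rplp1 (adjusted p = 0.03) and Rpl13a (adjusted p = 0.0461), were called with a 24 h cosine, where 4.65% of all genes were. Without RevScapTKO ZT4 replicate 3 the count in RevScapTKO hepatocytes was 12.

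In RevDKO hepatocytes Rplp1 measured 123, 70.3 and 110 at ZT4, 149, 141 and 208 at ZT10, 206, 238 and 207 at ZT16, and 183, 194 and 202 at ZT22. The 3 libraries at ZT4 were below all others. In Control hepatocytes Rplp1 measured 268, 288 and 111 at ZT4 and 343, 232 and 269 at ZT22, with no common order of the times. Rpl13a in RevDKO measured 164, 149 and 128 at ZT4 and 228, 252 and 262 at ZT16, which did not overlap.

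Rpl36a was the 1 member with a limma cosine call in Control hepatocytes (adjusted p = 0.0366), beside 8.33% of all genes, and 0 members were with the replicate block. It measured 8.54, 10.6 and 8.29 at ZT4, 2.58, 5.71 and 5.58 at ZT10, 2.38, 1.57 and 3.37 at ZT16, and 1.89, 1.93 and 1.3 at ZT22. Its ZT4 libraries were the highest. In ScapKO hepatocytes Rps21 was called by limma (adjusted p = 0.0434), beside 1.92% of all genes, a call that ended with the replicate block and in the test for any difference between times. It had 190, 179 and 170 at ZT4, 117, 127 and 123 at ZT10, 165, 125 and 134 at ZT16, and 175, 220 and 244 at ZT22. RevScapTKO hepatocytes and the macrophages gave 0 members by this limma test, with 11 of 73 members at an unadjusted p under 0.05 in RevScapTKO hepatocytes beside 10.3% of all genes. In Control, RevDKO and RevScapTKO macrophages 2, 1 and 0 of 67 were, and in ScapKO macrophages 7 of 73, beside 7.18, 12, 5.46 and 10.2% of all genes. Of all genes, 0.473% were called in RevDKO macrophages and 0.0215% in RevScapTKO macrophages. By JTK_CYCLE the ScapKO hepatocyte count was 3 without ZT22 replicate 1.

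The time of the highest mean was shared by many members in some groups. In ScapKO macrophages 71 of 73 members (97.3%) were highest at ZT10, beside 35.0% of all genes tested, and the summed level was 45230 to 47810 there, 29670 to 32700 at ZT4, 30510 to 34990 at ZT16 and 24940 to 43990 at ZT22. The ZT10 libraries lay above all others. The headers of the ScapKO libraries also carry a number whose meaning is not given and which was not used. In macrophages it was higher at ZT10 than in most libraries of the other times, and its part in the ZT10 level was not tested. ZT22 replicate 2, with the lowest sum of 24940, stood apart in its markers, at a macrophage marker sum of 26800 where the other 11 had 96800 to 162000, an endothelial sum of 16400 and a stellate sum of 3950. Without it, an alternative chosen after seeing the data, 65 members (89.0%) were highest at ZT10 beside 33.3% of all genes. Hepatocyte marker sums in the same libraries were 23200 to 35200 at ZT10, 53100 to 167000 at ZT4, 33000 to 87300 at ZT16 and 71200 to 193000 at ZT22, and their part in the ZT10 level was not tested. By JTK_CYCLE the rhythmic members there were 42 without ZT22 replicate 3, 29 without ZT22 replicate 1, 4 without ZT22 replicate 2, 5 without ZT10 replicate 1 and 3 without ZT10 replicate 2 or 3. Rpl30, the 1 member called there with the series entered once, measured 205, 184 and 242 at ZT10 and 72.6 to 149 at the other times. By limma 0 members differed between the times in ScapKO macrophages, as did 0 genes in all, although 31 members had an unadjusted p under 0.05 beside 8.58% of all genes. In ScapKO hepatocytes 38 of 73 members (52.1%) were highest at ZT22, beside 33.1% of all genes, and in RevDKO hepatocytes 42 of 71 (59.2%) at ZT10, beside 26.7%. In RevScapTKO hepatocytes 46 of 67 (68.7%) were lowest at ZT4, beside 31.2%. The summed level in RevDKO hepatocytes ran from 4147 to 6987 at ZT10, highest in replicate 2, and from 4950 to 5652 at ZT16. In RevScapTKO hepatocytes at ZT4 it ran from 2629 to 4117, lowest in replicate 3. The part of these single libraries in the shares was not tested. Members of a group share their libraries, so these shares are descriptions.

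Genes that act with the ribosome were read from lists in the same fits. Of 76 mitochondrial ribosomal protein genes, which serve the separate ribosome of mitochondria, 38 were lower and 1 higher in RevScapTKO than in Control hepatocytes, with a median of -0.36, close to the members' -0.34. The largest falls were those of Mrpl14 (-1.09), Mrpl36 (-0.98) and Mrpl22 (-0.79), and Mrpl18 was higher (0.69). Ribosomal proteins under other names were lower too in 2 of 3 tested, Fau among them (-0.56, adjusted p = 0.000331), as were the paralogs Rps27rt and Rps27l, 2 of 5. The share of all genes called lower in this contrast was 18.7%. Of 16 elongation factors and other genes with a pyrimidine tract, 4 were lower, among them Tpt1 (-0.59) and Eif3e (-0.42), and Gas5 was higher (0.32).

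Of 32 genes of ribosome assembly and ribosomal RNA synthesis, 3 were lower in RevScapTKO than in Control hepatocytes, a smaller share than the 18.7% of all genes, Nop10 (-0.62), Polr1b (-0.31) and Bysl (-0.25), and Gnl3 was higher (0.46). Of 13 genes of mTOR signalling to the ribosome, 2 were lower, a share near the 18.7% of all genes. They were Eif4ebp2 (-0.67) and Eif4ebp1 (-0.63), repressors of cap-dependent translation, and Mtor was higher (0.61). Between RevScapTKO and RevDKO, Myc, a driver of ribosome synthesis, was higher in hepatocytes (1.32, adjusted p = 0.00883) and in macrophages (1.32, adjusted p = 0.0267). Of the same 13 genes, 2 were higher and 1 lower in those hepatocytes, beside 26.2% of all genes called. In macrophages 1 was higher and 0 lower, beside 3.0% called. All 14 macrophage and all 4 proliferation markers were also higher in this hepatocyte contrast, and their part in the Myc level was not tested. RevDKO against Control in hepatocytes called 1 of 32 assembly genes, Polr1b (-0.37), and 1 of 76 mitochondrial ribosomal protein genes, Mrps21 (-0.61). Both were lower, where 2.43% of all genes were called lower.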

How the data were processed

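The deposited values are RPKTM, an RPKM-type unit of reads per kilobase scaled to a fixed read total. The authors removed ribosomal RNA, made stranded libraries, aligned reads with STAR to mm9, counted RefSeq transcripts with HOMER and quantile normalized each of 4 tables. All libraries of a table hold the same set of values, and depth is unknown. The transcript with the highest mean stood for a gene. Genes with at least 3 libraries above 5 were fitted as log2(RPKTM + 1) with limma 3.58.1 (trend, R 4.3.3) over the 36 libraries of a table, Benjamini-Hochberg adjusted over all genes, threshold 0.05. JTK_CYCLE tested periods of 18 and 24 h within a genotype, Bonferroni adjusted over patterns. Scripts were tested on simulated data. Members and lists were chosen with earlier results of these data known. Named were up to 6 called members per direction and contrast by size, the 5 highest and lowest in Control, the 3 smallest p per rhythm test, called list genes and well-known members. Each replicate is a separate library. The labels do not state separate animals, so p-values measure the spread between libraries. Alternatives were other pseudocounts (0.1, 10), filters, transcript means, centring, genotype subsets, trend, markers, replicate block, left-out libraries and rhythm settings. Columns of no sample numbered 0. Some items are not reported here.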

Additional observations from a re-analysis of the deposited data

How the results depend on the processing

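Depth is unknown, so the precision of low levels rests on the replicates. Of the refits of a single member's difference 649 kept direction and side of the threshold and 74 lost the call. Of the medians 274 shifted by less than the replicate spread of the members' mean log2 level, 0.21 in hepatocytes and 0.24 in macrophages. That spread is larger than most of the medians themselves, so this count does not show that a median kept its size or sign. In RevDKO against Control hepatocytes 2 members were called with a pseudocount of 10, 0 with no filter on low values, 2 with only the 2 genotypes and 0 without the limma trend, and 0 to 4 on leaving out 1 library (2 without RevScapTKO ZT10 replicate 1). RevScapTKO against RevDKO gave 4 with no filter, 2 with the stricter filter, 1 with the marker covariate, where the median reversed to 0.16, and 4 to 14 on leaving out 1 library. RevScapTKO against Control gave 13 with the stricter filter, 3 with the marker covariate, where the median was -0.02, and 16 to 39 (without Control ZT4 replicate 3). The stricter filter also tests fewer members. For the other settings the cause was not tested.

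In macrophages RevDKO against Control gave 0 to 1 on leaving out 1 library (1 without Control ZT22 replicate 3). RevScapTKO against RevDKO gave 2 with a pseudocount of 10, 0 with the stricter filter, 3 with the marker covariate and 1 to 2 on leaving out 1 library (2 without RevDKO ZT16 replicate 3 or RevScapTKO ZT22 replicate 2). RevScapTKO against Control gave 1 with a pseudocount of 0.1, 1 with no filter, 1 with the stricter filter, 16 with the marker covariate and 1 to 7 on leaving out 1 library (1 without any of 11 libraries, when Rpl37 lost its call). Changed rhythm stayed at 0 members without any 1 library.

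Rhythmic members are given in the order Control, RevDKO, RevScapTKO and ScapKO. With the series entered once they were 0, 5, 3 and 1 in hepatocytes and 0, 0, 0 and 1 in macrophages. With a 24 h cosine they were 1, 3, 0 and 1, then 0, 0, 0 and 0, and with any difference between times 1, 1, 0 and 0, then 0, 0, 0 and 0. With no minimum ratio Control and ScapKO hepatocytes had 5 and 21 and RevScapTKO macrophages 4, beside 37.3, 26.6 and 13.6% of all genes. With a ratio over 2 hepatocytes had 1, 5, 6 and 0, beside 13.1, 11.3, 7.22 and 7.02% of all genes. RevScapTKO macrophages had 1 and ScapKO macrophages 5, beside 6.67 and 10.4%. Median centring gave 8 in ScapKO macrophages, beside 16.4% of all genes. Leaving out 1 library gave 2 to 6, 16 to 32, 12 to 25 and 3 to 12 in hepatocytes and 1 to 10, 4 to 10, 1 to 6 and 3 to 42 in macrophages.

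Whether replicate numbers pair the libraries is not stated in the labels. The median correlation of same-numbered deviations from the group means was 0.0191 in hepatocytes and 0.0829 in macrophages. Between other numbers it was -0.0107 and -0.0399. Single same-numbered pairs reached 0.534 and 0.53, so low medians do not exclude pairing of some libraries. With the replicate block the mean-level calls were 1, 7 and 29 in hepatocytes and 0, 1 and 3 in macrophages. Changed rhythm with the block gave 0 members, and the cosine with the block gave 0, 3, 0 and 0, then 0, 0, 0 and 0.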

Other observations

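Genes outside the members were ranked by Pearson's r with the members' mean log2 level over the 36 libraries of a table, as a description of libraries that share groups and normalization. In hepatocytes the 5 highest were Emc6 (0.899), Mrps24 (0.893), Ndufb10 (0.893), Eci1 (0.893) and Ppia (0.88), where Mrps24 is a mitochondrial ribosomal protein, Ndufb10 a subunit of respiratory complex I and Ppia cyclophilin A. The median member had r = 0.598 with that mean, the lowest -0.0911 in Rpl12, and the median of other genes was 0.0338. In macrophages the 5 highest were Atp6v1g1 (0.805), Ostm1 (0.795), Asah1 (0.786), Leprot (0.783) and Hfe (0.779), where Atp6v1g1 is a subunit of the vacuolar proton pump and Asah1 the lysosomal acid ceramidase. There the median member had r = 0.435, the lowest -0.465 in Rpl10a.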
